A study of Mus musculus with 6 samples.

Results

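The 9 genes described here encode the subunits of AMPA receptors (Gria1 to Gria4) and kainate receptors (Grik1 to Grik5), out of 18193 genes read in the series. They were found by taking every probe set that the platform annotation gives to exactly 1 of these gene symbols, which yielded 18 probe sets, 10 for the 4 AMPA subunits and 8 for the 5 kainate subunits. A probe set is a group of short probes whose signals are combined into 1 value for a transcript. Affymetrix arrays measured total RNA from the non-cerebellar part of the brain, with 1 array for each of 3 Gb5ko samples (Gb5-deficient mice) and 3 Gb5wt samples (wild-type mice). Gb5 is the product of Gnb5, a divergent G protein beta subunit that works with RGS proteins of the R7 family. Per the labels, age- and sex-matched littermates were used, and the design text calls the samples of each genotype biological replicates. The sources used here do not give the allele of Gnb5, the strain, the ages or the sexes.

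AMPA and kainate receptors are ligand-gated cation channels opened by glutamate, each built of subunits arranged around a central pore. AMPA receptors carry most of the fast excitatory current at brain synapses, and the subunit encoded by Gria2, once its pre-mRNA is edited in the pore region, makes them poorly permeable to calcium. Kainate receptors act on both sides of the synapse and modulate release and excitability. The subunits of Grik1, Grik2 and Grik3 can form channels on their own, whereas those of Grik4 and Grik5 bind glutamate tightly and need a subunit of the first kind to make a working channel.

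The targeted gene was read first, as a check of the labels. The brighter Gnb5 probe set read 3.67, 3.00 and 3.56 on the Gb5ko arrays and 8.79, 8.98 and 9.30 on the Gb5wt arrays, all as log2 expression values. It fell by 5.62 ± 0.193 (SE), with a limma adjusted p of 4.48e-06. All 8 neuron markers listed were bright, with means over the 6 arrays from 11.11 to 13.26, and their per-array mean ran from 12.41 to 12.49 in Gb5ko and from 12.45 to 12.50 in Gb5wt. Of these 8, 3 did not overlap between genotypes, beside 25.1% of the brightest probe sets of all genes. At an unadjusted limma p under 0.05, 1 was lower in Gb5ko, 12.5% against 15.6% of those probe sets. Of 4 excitatory neuron markers 1 was lower at that level (25.0%), and of 6 inhibitory neuron markers 1 was higher and 1 lower (33.3%). None of these neuronal markers passed after adjustment, and their part in the results below was not tested. Of 6 cerebellar markers, Gabra6 and Cbln3, both of granule cells, were dim, at 2.80 to 3.54 and 3.83 to 4.96 across arrays. Pcp2, known from Purkinje cells, read 8.51 to 8.73, and Car8, Cbln1 and Zic1, which other brain regions also express, had means of 8.11 to 10.84. The cerebellar markers had a median difference (Gb5ko minus Gb5wt) of 0.21. Of the 6, 4 did not overlap between genotypes, beside 25.1% of the brightest probe sets of all genes. Pcp2, Gabra6 and Cbln1 were higher in all Gb5ko arrays and Zic1 was lower. None of the cerebellar markers passed in limma, and 1 (Zic1, at -0.31) had an unadjusted p under 0.05, beside 15.6% of those probe sets. Their part in the results below was not tested. Some arrays stood apart. On principal component 1, which held 40.3% of the variance, Gb5ko replicate 1 lay at -49.8 against -5.82 and -8.47 for the other Gb5ko arrays, and Gb5wt replicate 4 lay at 32.3 against 15.4 and 16.4. Gh, the pituitary growth hormone gene, read 10.62 in Gb5ko replicate 3 and 4.20 to 6.21 elsewhere. Sex-linked transcripts varied widely between arrays within both groups, and the groups overlapped. Xist read 10.65, 8.31 and 10.62 in Gb5ko and 4.96, 10.81 and 10.70 in Gb5wt, and the Y-linked Eif2s3y read 2.96, 11.28 and 6.97 in Gb5ko and 11.26, 6.05 and 4.05 in Gb5wt. Gb5wt replicate 4 alone was low for Xist and high for Eif2s3y, whereas Gb5ko replicate 2 was high for both, at 8.31 and 11.28. Several arrays with high Xist read Eif2s3y above the 2.96 of Gb5ko replicate 1, so n counts arrays here. Differences that move by over 1.5 times without Gb5ko replicate 1 are given without it too, for receptor subunits of at least 0.10 in size and for the companion genes named.

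None of the 18 probe sets of AMPA or kainate subunits passed the limma test at an adjusted p under 0.05, adjusted over 45037 probe sets, of which 0.0266% passed. At an unadjusted p under 0.05 there were 3 of the 18, 16.7%, against 14.4% of all probe sets. They were 1 probe set of Gria1, higher in Gb5ko, as 8.09% of all probe sets were, and 1 each of Gria4 and Grik3, lower, as 6.33% were. Values of Gb5ko and Gb5wt arrays did not overlap at 5 of the 18, 27.8%, against 21.5% of all probe sets. Of these 5, 2 were higher in Gb5ko, beside 12.5% in the background, and 3 were lower, beside 8.95%. In bulk tissue fewer cells of a type and less RNA per cell cannot be told apart, and that holds for each difference below.

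The families were read at different brightness. By the brightest probe set of each gene, AMPA subunits lay between percentiles 90.6 and 98.3 of all probe sets by mean log2 level, and kainate subunits between 58.6 and 93.0. Over all their probe sets the levels ran from 6.05 to 12.23 for AMPA and from 4.30 to 10.70 for kainate subunits. Probes differ in how strongly they bind, so these percentiles place each probe set on the array and do not order the transcripts by abundance. The span within single genes shows the same, since the 3 Gria4 probe sets lay at percentiles 90.6, 55.3 and 52.3 and the Grik3 probe sets at 93.0 and 32.7.

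**Figure D1:**
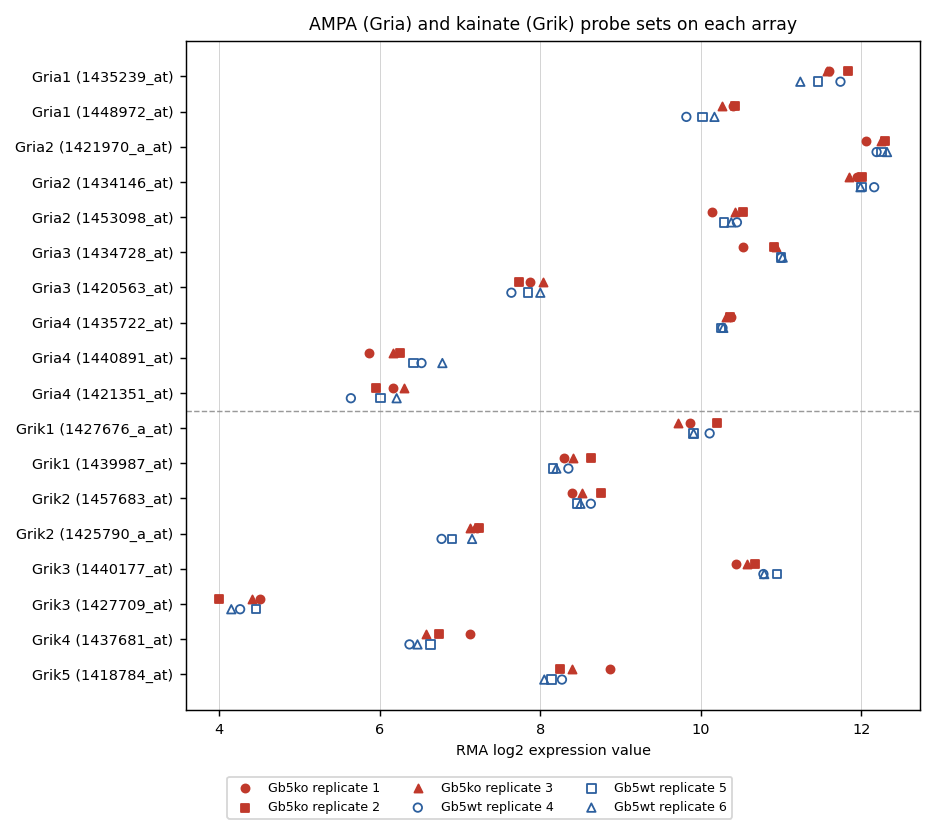
RMA log2 expression values (x axis) of each of the 18 AMPA and kainate probe sets (rows, gene and probe set name) on every array, with filled symbols for Gb5ko replicates 1 to 3, open symbols for Gb5wt replicates 4 to 6 and a dashed line between the families. Probe sets of 1 gene lie far apart, as for Grik3 at 10.70 and 4.30, while the genotypes lie close together within each row.

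Gria1 encodes GluA1, a subunit whose delivery to synapses rises with activity. Its brightest probe set (1435239_at) read 11.60, 11.83 and 11.57 in Gb5ko and 11.74, 11.46 and 11.24 in Gb5wt. The groups overlapped, because Gb5wt replicate 4 read above all Gb5ko arrays but one. The difference, Gb5ko minus Gb5wt, was 0.19 ± 0.144 (SE) on the log2 scale, with a limma adjusted p of 0.565, and it ran from 0.07 without Gb5wt replicate 6 to 0.32 without Gb5wt replicate 4. The dimmer Gria1 probe set (1448972_at) read 10.40, 10.42 and 10.27 in Gb5ko and 9.82, 10.02 and 10.17 in Gb5wt. Here all Gb5ko arrays lay above all Gb5wt arrays, and Gb5wt replicate 4 was the lowest. Its difference was 0.36 ± 0.119, 1.28-fold, with a 95% interval of 0.09 to 0.63, and it did not pass (limma adjusted p = 0.263). Leaving out 1 array at a time gave 0.26 to 0.44. Both Gria1 probe sets thus had a positive difference, and neither passed.

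Gria2 encodes GluA2, the subunit that sets the calcium permeability of the channel. Its brightest probe set (1421970_a_at) read 12.06, 12.29 and 12.24 in Gb5ko and 12.19, 12.25 and 12.32 in Gb5wt. The 6 arrays were interleaved, with Gb5ko replicate 1 lowest. Differences of the 3 Gria2 probe sets were -0.05, -0.11 and -0.01, with limma adjusted p values of 0.843, 0.636 and 0.977. Their 95% intervals ran from -0.29 to 0.18 for the brightest, from -0.35 to 0.12 for the second (1434146_at) and from -0.29 to 0.27 for the dimmest (1453098_at). The signs of the brightest and the dimmest turned without Gb5ko replicate 1, at 0.01 and 0.10.

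Gria3, on the X chromosome, encodes GluA3. Its brighter probe set (1434728_at) read 10.52, 10.91 and 10.94 in Gb5ko and 11.00, 11.00 and 11.02 in Gb5wt. All Gb5ko arrays lay below all Gb5wt arrays, with Gb5ko replicate 1 far below the rest. The difference was -0.22 ± 0.128 and did not pass (limma adjusted p = 0.462), and it was -0.08 without Gb5ko replicate 1. The Gb5wt values were close to one another. Xist, which is made from the inactive X chromosome, read 4.96 in Gb5wt replicate 4 and 10.81 and 10.70 in the other Gb5wt arrays. Any part of sex in the Gria3 values was not tested. The dimmer Gria3 probe set (1420563_at), at 7.88 in Gb5ko and 7.83 in Gb5wt, differed by 0.05 ± 0.128 (limma adjusted p = 0.889).

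Gria4 encodes GluA4, a subunit of fast channels known from interneurons and some brain stem neurons. It lies on chromosome 9 with Gnb5, with 1464 annotated genes between them in the gene order of GRCm38.p6. Any part of that position in the differences was not tested. Its brightest probe set (1435722_at) read 10.37, 10.36 and 10.31 in Gb5ko and 10.27, 10.25 and 10.28 in Gb5wt. Each group spread little (SD 0.0287 and 0.0170, n = 3 each), so the groups did not overlap although the difference was only 0.08 ± 0.0923. That SE is limma's moderated one, which draws on the spread of all probe sets, and it exceeds both SDs. A dim Gria4 probe set (1440891_at) read 5.86, 6.25 and 6.16 in Gb5ko and 6.52, 6.42 and 6.78 in Gb5wt. All Gb5ko arrays were lower there, with Gb5ko replicate 1 the lowest. Its difference of -0.48 ± 0.139, 1.40-fold lower, was the largest in size among the 18 and did not pass (limma adjusted p = 0.234, 95% interval -0.80 to -0.17). It stayed between -0.56 and -0.37 with 1 array left out, the smallest size being that without Gb5ko replicate 1. The third Gria4 probe set (1421351_at), as dim at 6.14 in Gb5ko and 5.95 in Gb5wt, differed by 0.19 ± 0.160.

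Among the kainate subunits, Grik1 encodes GluK1, known from interneurons and sensory neurons. Its brighter probe set (1427676_a_at) read 9.86, 10.20 and 9.71 in Gb5ko and 10.11, 9.91 and 9.91 in Gb5wt. Both the highest and the lowest value were those of Gb5ko arrays, and the difference was -0.05 ± 0.141 (limma adjusted p = 0.888). The dimmer one (1439987_at), at 8.44 ± 0.174 (SD, n = 3) in Gb5ko and 8.24 ± 0.0986 (SD, n = 3) in Gb5wt, differed by 0.21 ± 0.119 (limma adjusted p = 0.448).

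Grik2 encodes GluK2, the main subunit of kainate receptors at hippocampal mossy fibre synapses. Its brighter probe set (1457683_at) read 8.40, 8.76 and 8.52 in Gb5ko and 8.63, 8.46 and 8.50 in Gb5wt. Gb5ko replicates 1 and 2 marked the lowest and the highest value, and the difference was 0.03 ± 0.121 (limma adjusted p = 0.935). The dimmer probe set (1425790_a_at) read 7.21, 7.24 and 7.13 in Gb5ko and 6.77, 6.90 and 7.15 in Gb5wt. Only Gb5wt replicate 6 reached the Gb5ko range, and the difference was 0.26 ± 0.119 with a 95% interval of -0.01 to 0.52 (limma adjusted p = 0.363).

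Grik3 encodes GluK3, a subunit that responds only to high glutamate. Its bright probe set (1440177_at) read 10.44, 10.68 and 10.57 in Gb5ko and 10.78, 10.95 and 10.79 in Gb5wt. All Gb5ko arrays lay below all Gb5wt arrays. The difference was -0.28 ± 0.108, 1.21-fold lower, with a 95% interval of -0.52 to -0.03, and it did not pass (limma adjusted p = 0.302). It stayed between -0.33 and -0.22 with 1 array left out. The other Grik3 probe set (1427709_at), at 4.31 in Gb5ko and 4.29 in Gb5wt, lay at percentile 32.7 and was not shown to lie above background. Its difference was 0.02 ± 0.151.

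Grik4 and Grik5 encode GluK4 and GluK5, the subunits that need a partner, and each was read by 1 probe set. Grik4 (1437681_at) read 7.13, 6.74 and 6.57 in Gb5ko and 6.37, 6.63 and 6.47 in Gb5wt. Gb5ko replicate 1 was the highest array, and Gb5ko replicate 3 lay within the Gb5wt range. The difference was 0.32 ± 0.151 with a 95% interval of -0.02 to 0.66 (limma adjusted p = 0.366). Grik4 is also on chromosome 9, with 741 annotated genes between it and Gnb5. Grik5 (1418784_at) read 8.87, 8.24 and 8.39 in Gb5ko and 8.27, 8.14 and 8.05 in Gb5wt. Gb5ko replicate 1 was again the highest, and Gb5ko replicate 2 lay within the Gb5wt range. The difference was 0.35 ± 0.161 with a 95% interval of -0.02 to 0.71 (limma adjusted p = 0.363). Without Gb5ko replicate 1 the differences were 0.16 for both genes. That array also had the lowest mean over myelinating oligodendrocyte markers, 10.62 against 10.85 and 11.09 in the other Gb5ko arrays and 10.99 to 11.28 in Gb5wt. Of 5 measured myelin markers 5 had a negative difference and 0 passed in limma, 1 with an unadjusted p under 0.05, as had 15.6% of the brightest probe sets of all genes. The mean over 6 astrocyte markers was lowest in Gb5ko replicate 1 as well, 10.46 against 10.56 to 10.79 in the other arrays. Of those 6, 0 passed in limma and 3 had an unadjusted p under 0.05, with Gjb6 at -0.59, Slc1a3 at -0.28 and Aldh1l1 at 0.35. The part of either cell type in these differences was not tested.

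**Figure D2:**
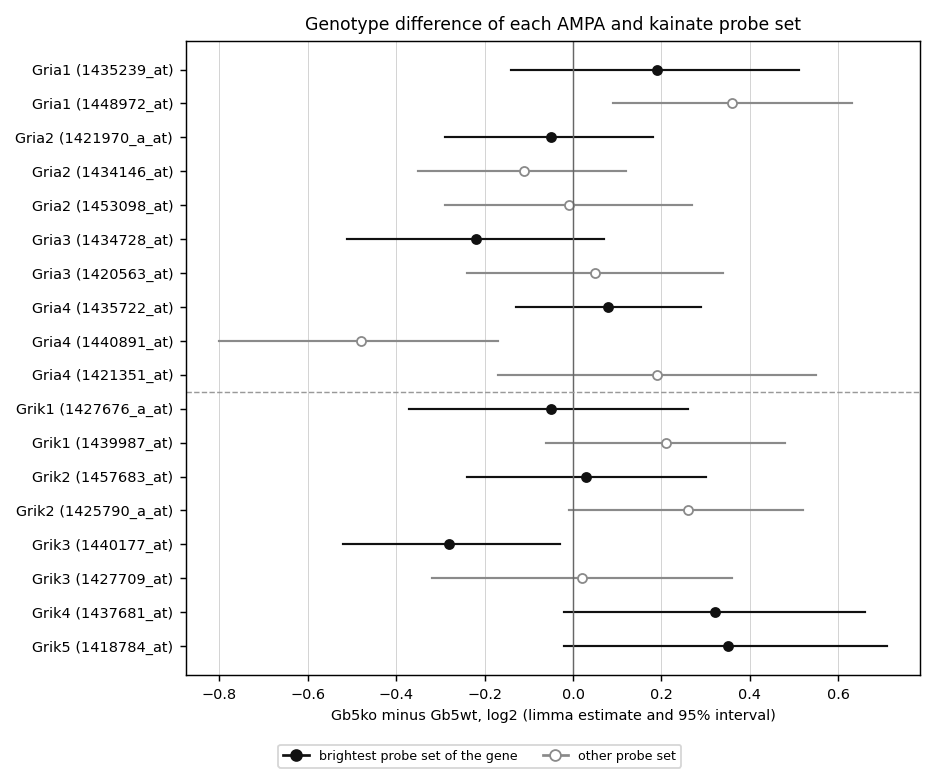
Gb5ko minus Gb5wt difference on the log2 scale (x axis) for each AMPA and kainate probe set, with its 95% interval from limma over 3 arrays per group. Filled black points are the brightest probe set of each gene, open grey points the others, and the dashed line parts the families. Of the 18 intervals 15 include 0, and the 3 that do not are Gria1 at 0.36, Gria4 at -0.48 and Grik3 at -0.28.

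Among brightest probe sets, Grik5 and Grik4 had the largest positive differences and Grik3 the largest negative one. The promoters of these 3 kainate genes are shown for that reason, from 250 bases before to 50 after the annotated start, as RefSeq gives them for GRCm38.p6. They are written 5′ to 3′ on the strand of the gene, and capitals mark the GC box GGGCGG on either strand. The Grik3 window is chr4:125490446-125490745 on the plus strand, that of Grik4 chr9:42944322-42944621 and that of Grik5 chr7:25072320-25072619, both on the minus strand.
Grik3: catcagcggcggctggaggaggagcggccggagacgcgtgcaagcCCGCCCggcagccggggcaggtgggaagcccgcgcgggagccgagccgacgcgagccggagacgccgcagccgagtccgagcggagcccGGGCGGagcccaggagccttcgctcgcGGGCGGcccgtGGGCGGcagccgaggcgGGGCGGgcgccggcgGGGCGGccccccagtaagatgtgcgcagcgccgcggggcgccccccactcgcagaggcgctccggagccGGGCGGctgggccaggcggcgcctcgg
Grik4: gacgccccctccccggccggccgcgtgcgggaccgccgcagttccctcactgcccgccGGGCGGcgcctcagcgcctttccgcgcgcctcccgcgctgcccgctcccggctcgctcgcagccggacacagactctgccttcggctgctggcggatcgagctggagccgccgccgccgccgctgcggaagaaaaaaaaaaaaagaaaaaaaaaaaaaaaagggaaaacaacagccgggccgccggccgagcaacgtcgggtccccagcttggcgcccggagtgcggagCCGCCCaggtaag
Grik5: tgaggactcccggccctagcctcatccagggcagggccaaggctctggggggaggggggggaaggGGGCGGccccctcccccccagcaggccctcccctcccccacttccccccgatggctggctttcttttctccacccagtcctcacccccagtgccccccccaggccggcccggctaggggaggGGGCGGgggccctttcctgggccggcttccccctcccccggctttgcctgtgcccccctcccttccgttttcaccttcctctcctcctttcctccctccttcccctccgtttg
The Grik3 promoter holds 7 GC boxes, that of Grik4 2 and that of Grik5 2. Among the 32851 RefSeq promoters given, 35.7% hold at least 1, 19.5% at least 2 and 0.627% at least 7. The table matched 6 of the 9 members, and 3 of those, Gria2, Gria4 and Grik2, hold 0 in this window. GC content was 82.0% for Grik3, 70.0% for Grik4 and 72.0% for Grik5, against a median of 52.7% over all promoters. It was above that median for the members without a box too, at 65.7% for Gria2, 59.7% for Gria4 and 64.7% for Grik2. The box is a match of letters only.

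Both families held positive and negative differences. Over brightest probe sets the median difference was 0.01 for 4 AMPA subunits and 0.03 for 5 kainate subunits, beside 0.05 over the brightest probe sets of all genes. AMPA subunits had 2 positive and 2 negative differences, and kainate subunits 3 and 2. Over all probe sets the medians were 0.02 for AMPA and 0.12 for kainate subunits, beside 0.03 over all probe sets tested, with 5 of 10 and 6 of 8 positive. Relative to the Gb5wt mean, the mean of the AMPA subunits stood at -0.11, 0.10 and 0.02 in the Gb5ko arrays and at 0.05, -0.01 and -0.04 in the Gb5wt arrays. The kainate mean stood at 0.14, 0.13 and -0.05 in Gb5ko and at 0.03, 0.02 and -0.05 in Gb5wt. Both families overlapped between genotypes, and in Gb5ko replicate 1 they lay on opposite sides of the Gb5wt mean. Differences of the 9 brightest probe sets had 95% intervals reaching from -0.52 to 0.71 on the log2 scale.

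Agreement between probe sets of 1 gene was examined on each array as the gap between 2 probe sets, brighter minus dimmer, which removes what both share. The 7 genes with more than 1 probe set gave 11 such pairs. The genotype differences of the pair had the same sign in 6 pairs and opposite signs in 5. All 3 Gria2 pairs had the same sign and gaps that changed by -0.10 to 0.06, the smallest changes among the 7 genes. In 3 of the 11 pairs the gaps of Gb5ko and Gb5wt did not overlap, beside 20.8% of the 30372 same-gene pairs on the array. They were 1 pair of Grik1 and 2 of Gria4, and the Gria4 pairs share 1 probe set (1440891_at), so they are not separate cases.

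The gap between the brightest Gria4 probe set and 1440891_at was 4.50, 4.11 and 4.16 in Gb5ko and 3.74, 3.83 and 3.51 in Gb5wt. It was wider in every Gb5ko array, by 0.56 on average, with an exact two-sided permutation p of 0.1, the smallest that 3 against 3 arrays can give, and 0.367 adjusted over the 11 pairs. The gap between 1440891_at and the third Gria4 probe set was -0.31, 0.30 and -0.14 in Gb5ko and 0.89, 0.41 and 0.57 in Gb5wt, a change of -0.67 with the same exact p. The other Gria4 probe sets had positive differences, so the lower Gb5ko reading was that of 1440891_at alone. Those positive differences were small beside their SE, at 0.08 ± 0.0923 for the brightest and 0.19 ± 0.160 for the third (1421351_at). The latter was 0.03 without Gb5wt replicate 4, and 0.01 without that array and Gb5ko replicate 1. For Grik1 the gap was 1.57, 1.57 and 1.30 in Gb5ko and 1.76, 1.75 and 1.72 in Gb5wt, a change of -0.26 (exact permutation p = 0.1). The sources used here do not give where these probes lie in the transcripts.

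Gaps also varied between arrays of the same genotype. Gb5wt replicate 4 had the widest gap of the 6 arrays in 6 of the 11 pairs, spread over Gria1, Gria3, Gria4, Grik1 and Grik2. The Gria4 pairs among them share 1421351_at, so they are not separate cases. For Grik1 the gap there, 1.76, was close to the 1.75 and 1.72 of the other Gb5wt arrays. For Gria1 the gap was 1.92 there and 1.06 to 1.43 in the other arrays, and for Grik2 it was 1.85 there and 1.18 to 1.56 elsewhere. The dimmer Gria1 and Grik2 probe sets were lowest on that array, whereas their brighter probe sets read second highest there. Without Gb5wt replicate 4 and Gb5ko replicate 1, the differences were 0.35 and 0.25 for the brighter and dimmer Gria1 probe set and 0.16 and 0.16 for those of Grik2, against 0.19 and 0.36 and 0.03 and 0.26 over all arrays.

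**Figure D3:**
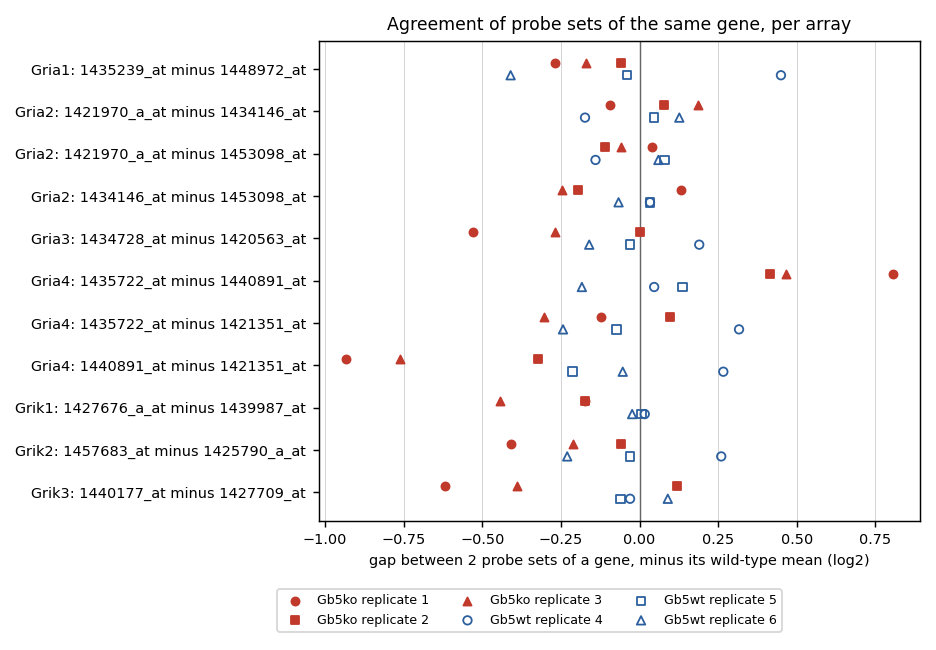
Gap between 2 probe sets of the same gene on each array, brighter minus dimmer, given relative to the mean gap of the Gb5wt arrays (x axis, log2), for the 11 pairs of AMPA and kainate genes. Filled symbols are Gb5ko replicates and open symbols Gb5wt replicates. The Gria4 pairs with 1440891_at part the genotypes, with changes of 0.56 and -0.67, while the open circle of Gb5wt replicate 4 lies at the right end in 6 pairs.

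Genes whose products build, edit or anchor these receptors were read by their brightest probe sets. Of 31 listed genes 28 were measured, 19 with a positive and 9 with a negative difference, and 0 passed at a limma adjusted p under 0.05, where 0.022% of the brightest probe sets of all genes did. Their median difference was 0.08, beside 0.05 over all genes. At an unadjusted p under 0.05, 5 were higher and 1 was lower, 21.4% in all, against 15.6% of all genes, or 9.89% higher and 5.68% lower. Values of the genotypes did not overlap at 6 of the 28, also 21.4%, against 25.1% of the brightest probe sets of all genes.

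TARPs are membrane proteins that carry AMPA receptors to synapses and slow their closing. In the group of TARPs and the related Gsg1l, 5 of 7 genes had a positive difference, and none passed the limma adjusted threshold. At the unadjusted level 3 were higher, 42.9% against 9.89% of the brightest probe sets of all genes. Cacng2, which encodes stargazin, read 10.86, 10.74 and 10.73 in Gb5ko and 10.31, 10.44 and 10.53 in Gb5wt. All Gb5ko arrays were higher, by 0.35 ± 0.104 (limma adjusted p = 0.243). Its other probe sets differed by 0.37 and 0.04. The 0.37 rested on Gb5ko replicate 1, which read 8.33 against 7.53 and 7.48 in the other Gb5ko arrays, and without it these values were both 0.09. Cacng4, for the TARP gamma-4, differed by 0.36 ± 0.146 (limma adjusted p = 0.321), and its other probe set by 0.36 too. Without Gb5ko replicate 1 both were 0.23. Gsg1l, for a subunit that modulates AMPA receptors in a way of its own, differed by 0.33 ± 0.138 (limma adjusted p = 0.324).

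Among cornichons, Shisa proteins and other complex partners, 1 gene was higher and 1 lower of 9 at the unadjusted level. That is 22.2%, against 15.6% of the brightest probe sets of all genes. Shisa9, which encodes the AMPA receptor modulator CKAMP44, read 9.94, 10.38 and 10.30 in Gb5ko and 10.80, 10.69 and 10.62 in Gb5wt by its brightest probe set. It was lower in all Gb5ko arrays, with a difference of -0.50 ± 0.131, and did not pass (limma adjusted p = 0.218). A dimmer Shisa9 probe set went the other way, at 7.07, 6.72 and 6.95 in Gb5ko and 6.55, 6.52 and 6.57 in Gb5wt, a difference of 0.37 ± 0.114 (limma adjusted p = 0.251), and the remaining one differed by -0.14. The direction for Shisa9 thus depends on the probe set. Shisa7, of the same family, differed by 0.33 ± 0.126 (limma adjusted p = 0.296). Without Gb5ko replicate 1, its highest array, the difference was 0.20.

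Nptx2, a secreted pentraxin that gathers AMPA receptors and is made with neuronal activity, read 9.13, 8.77 and 9.04 in Gb5ko and 8.33, 8.64 and 8.58 in Gb5wt. All Gb5ko arrays were higher, by 0.47 ± 0.132, 1.38-fold, and the gene did not pass (limma adjusted p = 0.233). Its other probe set, dim at 4.16 and 3.94, differed by 0.21, and by 0.37 without Gb5ko replicate 1. The other 5 measured trafficking genes differed by less and had unadjusted p values above 0.05. No gene of the kainate receptor partners had an unadjusted p under 0.05, the smallest being that of C1ql2, a synaptic ligand of kainate receptors, at 0.26 ± 0.129. That probe set lay at percentile 40.6, with 5.10 in Gb5ko and 4.83 in Gb5wt, and was not shown to lie above background. Adarb1, whose enzyme edits Gria2 and kainate subunit pre-mRNAs, differed by 0.17 ± 0.113. Its dimmer probe sets differed by 0.02 and 0.23, or by 0.08 each without Gb5ko replicate 1. The brightest probe set of Grid1, for a delta receptor of the same gene family, differed by -0.09 ± 0.129, and by 0.03 without Gb5ko replicate 1. Its other probe set, dim at 5.30 and 4.94, differed by 0.36 ± 0.145 with an unadjusted limma p of 0.0355 (limma adjusted p = 0.315).

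**Figure D4:**
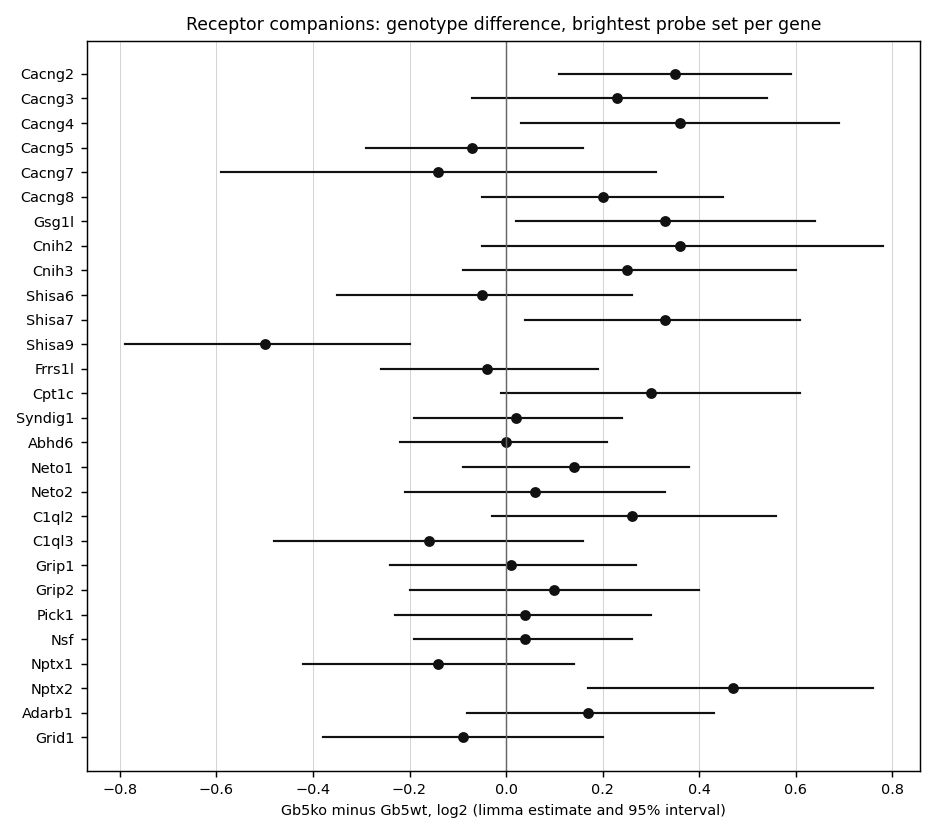
Gb5ko minus Gb5wt difference on the log2 scale (x axis) with the 95% interval from limma over 3 arrays per group, for the brightest probe set of each of 28 genes that act with AMPA and kainate receptors, in the order TARPs, complex partners, kainate partners, trafficking, editing and delta receptor. The intervals of Cacng2, Cacng4, Gsg1l, Shisa7 and Nptx2 lie above 0 and that of Shisa9 lies below it, and none of these genes passed after adjustment.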

How the data were processed

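Total RNA of 6 samples was labelled with biotin and read on Affymetrix arrays, per the labels' protocols. Values were deposited as log2 expression, made by the authors with RMA and Partek per the submitters' processing notes, which give no version. RMA corrects background, normalizes between arrays and summarizes probes, and it keeps dim probe sets at low positive values. No detection calls were used here. The values, from 1.91 to 14.4 with array medians of 5.81 to 5.85, were not normalized again. After 64 control probe sets were left out, 45037 were tested without a filter: 34945 with 1 gene, 932 with several and 9160 with none listed. A gene is read by its 1-gene probe set with the highest mean. Entrez identifiers matched all 18 probe sets to the RefSeq table of GRCm38.p6, used for names, chromosomes and gene order; no build was given for the arrays.

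The fit of both genotypes used limma 3.58.1 (lmFit, eBayes) under R 4.3.3, two-sided, with Benjamini-Hochberg adjustment over 45037 probe sets (4 residual and 5.05 prior degrees of freedom), and the fit was tested on simulated data. The number of arrays limits the precision: standard errors of the 18 differences were 0.0923 to 0.161. All SE given with differences are limma's moderated values, which draw on the spread of all probe sets as well as on that of the probe set itself. The genes named are all members, and the companions with an unadjusted p under 0.05 or, in a group without one, the smallest p. Members and lists were chosen with earlier results of these data known. The gaps between probe sets were compared by an exact permutation test of group means, and they and the promoters shown were chosen after the values were seen. Alternatives were a filter on dim probe sets, quantile normalization, median centring, trend and robust eBayes, array weights (statmod 1.5.0), 1 probe set per gene, other thresholds and leaving out arrays. Figures were drawn with matplotlib 3.10.9.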

Additional observations from a re-analysis of the deposited data

How the results depend on the processing

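No paired analysis was run. The sample titles, numbered 1 to 3 for Gb5ko and 4 to 6 for Gb5wt, do not say which samples are littermates, so any pairing was left out. None of the 18 receptor probe sets passed in any of the fits run, and the smallest adjusted p among them was 0.155. At an adjusted p under 0.1 the number was 0, and at an unadjusted p under 0.05 it was 3. Over all probe sets, 12 passed in the reported fit, 9 to 12 with 1 array left out, 23 with trend and robust eBayes, 27 with array weights, 4 when only 18193 brightest probe sets were tested, and 44 at an adjusted p under 0.1. The kainate median difference, 0.03, was 0.12 over all probe sets and ran from -0.07 without Gb5ko replicate 2 to 0.11 without Gb5ko replicate 1. The AMPA median ran from -0.01 to 0.04 with 1 array left out. Of 215 values of single probe sets under alternatives, 195 kept their sign and 20 turned, all of them of probe sets that had differed by less than 0.10 either way. A kept sign did not mean a kept size. With 1 array left out, Gria4 1421351_at ran from 0.03 to 0.32 and Gria1 1435239_at from 0.07 to 0.32. Grik4 ran from 0.16 to 0.44 and Grik5 from 0.16 to 0.48. Gria1 1448972_at moved less, from 0.26 to 0.44, as did Gria4 1440891_at, from -0.56 to -0.37. With quantile normalization Grik2 1457683_at and Grik3 1427709_at were both at -0.01. With array weights Gria2 1453098_at was at 0.06 and Grik3 1427709_at at -0.02. Without Gb5ko replicate 1 and Gb5wt replicate 4 together, Gria2 1453098_at was at 0.14, Gria3 1420563_at at -0.04, Grik1 1427676_a_at at 0.05 and Grik3 1427709_at at -0.10. With 1 array left out, ranges were -0.10 to 0.01 for Gria2 1421970_a_at, -0.09 to 0.10 for Gria2 1453098_at, -0.05 to 0.13 for Gria3 1420563_at, -0.19 to 0.05 for Grik1 1427676_a_at, -0.07 to 0.11 for Grik2 1457683_at and -0.08 to 0.17 for Grik3 1427709_at. The cause of these moves was not tested. No detection calls were used, so a dim probe set such as Grik3 1427709_at may read background.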
